A study of Cavia porcellus with 34 samples.

Results

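Mitochondrial ribosomal protein genes, recognised here by a symbol that starts with MRPL or MRPS followed by a digit, were read in the paraventricular nucleus (PVN) of female guinea pigs descended from mothers given synthetic glucocorticoid (sGC) or vehicle in pregnancy. The rule found 68 of the 12592 genes listed over the 3 generation tables, of which 44 were MRPL genes of the large subunit and 24 were MRPS genes of the small subunit. Of these, 67 were listed in F1, 66 in F2 and 65 in F3, and 64 stood in all 3 tables. MRPL12 was not listed in F3, MRPL27 was not listed in F1, and MRPL34 and MRPS18B were listed in F1 alone. Every member listed in a table passed its filter on low values, a mean of at least 10.

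The mitoribosome is the ribosome inside mitochondria. It translates the few proteins encoded by mitochondrial DNA, which are core subunits of the respiratory chain. Its RNAs come from the mitochondrial genome, while all of its proteins are nuclear gene products that are made in the cytosol and imported. Some descend from bacterial ribosomal proteins and others were added in the mitochondrial lineage, and neurons depend heavily on the oxidative phosphorylation that these ribosomes serve.

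Pregnant Dunkin-Hartley females (F0) were injected with repeated courses of betamethasone, the sGC, or with saline vehicle (Veh). Their offspring (F1) were exposed as fetuses, and F2 and F3 descended from them by paternal transmission with no further treatment. RNA was sequenced from the PVN of juvenile females at postnatal day 40, with 5 animals per treatment in F1, 5 per treatment in F2 and 6 per treatment in F3. The tissue was a micropunch, so that neighbouring hypothalamus may be included, and the animals of a group came from separate litters.

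The values were normalized counts that the authors had adjusted within each generation, and levels are therefore not on a shared scale between generations. Deposited totals, in units of 1000000, ran from 15.6 to 21.9 in F1 Veh, from 16.2 to 20.0 in F1 sGC, from 15.6 to 19.4 over F2 and from 18.7 to 19.0 over F3. Fold changes are sGC over Veh on log2(value + 1), tested gene by gene with limma on the deposited scale and adjusted over all genes of a table by the Benjamini-Hochberg method. Calls in each generation are also given after division of each animal's values by its median-of-ratios size factor, since the F1 totals differed within groups, as are the fold changes that this scaling moves. The smallest change that either scale can show differs accordingly: the standard error of the F1 fold change of MRPS18C was 0.135 on the deposited scale and 0.0739 with size factors.

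In F1, most mitochondrial ribosomal protein genes were lower relative to other genes in sGC animals compared to Veh. The fold change lay below the all-gene median for 60 of 67 members, where 50% of genes lie by construction. The median member was -0.09 on the log2 scale while the median gene was 0.07, a difference of -0.16. No member passed the adjusted threshold of 0.05 on the deposited scale (limma), beside 0.657% of all genes, and 1 member, MRPS18C, was lower at an unadjusted p under 0.05, beside 1.46% of all genes, while none was higher, beside 12.1%. With size factors, 26 members fell, beside 8.86% of all genes, and 2 rose, beside 8.47%. The scaling thus decided the count of calls. A size factor shifts all genes of an animal alike, so the difference from the median gene, -0.16 on both scales, was nearly fixed by construction. The F1 values lacked 1 direction of variation between animals after the authors' adjustment, and with it as a covariate, an alternative added after seeing the data, 16 members fell and 1 rose with size factors, beside 11.3% of all genes called, and all 17 were among the 28 called without it. Over all genes the calls on the deposited scale were 72 higher and 6 lower, and with size factors 1006 higher and 1052 lower.

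The level of the whole group in each animal was taken as the mean log2 value of the members minus the median log2 value of all genes. In F1 Veh it was 0.10 in SGM3, 0.14 in SGM7, 0.10 in SGM11, 0.02 in SGM15 and 0.14 in SGM19. In F1 sGC it was -0.10 in SGM4, -0.003 in SGM8, -0.06 in SGM12, -0.08 in SGM16 and -0.10 in SGM20. Every sGC animal was below every Veh animal, and the nearest pair was SGM15 of the Veh group and SGM8 of the sGC group. The group means were 0.10 ± 0.05 (SD, n = 5) in Veh and -0.07 ± 0.04 (SD, n = 5) in sGC. In bulk tissue, fewer cells of a type and less RNA per cell cannot be told apart.

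**Figure D1:**
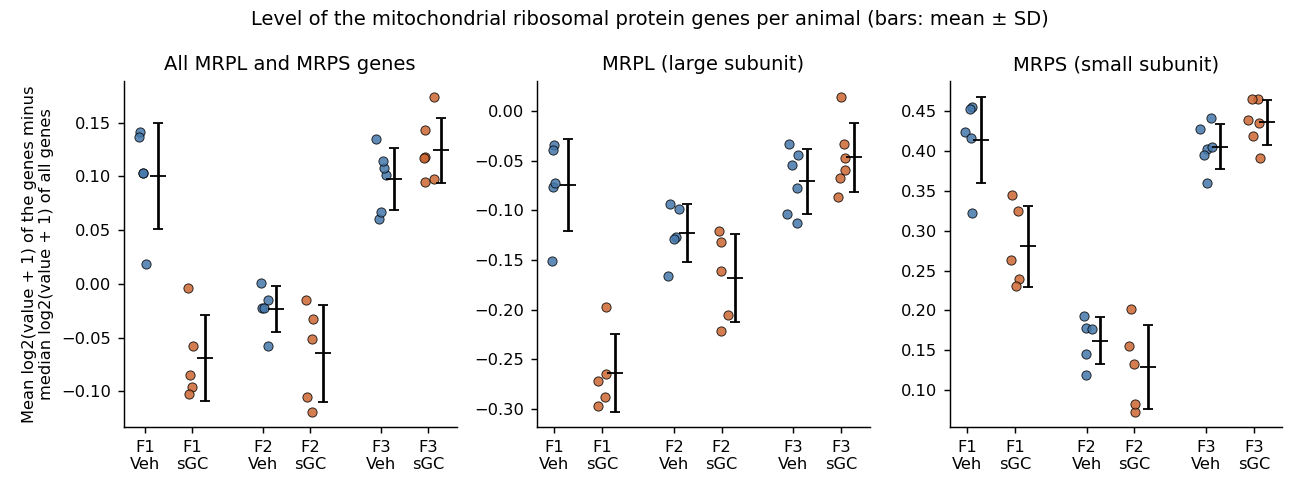
Each point is 1 animal, and the vertical axis gives the mean log2(value + 1) of the genes minus the median log2(value + 1) of all genes, for all members, for MRPL genes and for MRPS genes, with each generation split into its Veh and sGC groups (bars are mean ± SD). The F1 groups are apart in the panel of all members, where the lowest Veh animal is at 0.02 and the highest sGC animal at -0.003, and the F2 and F3 groups overlap. In the panel of MRPS genes the F1 groups overlap.

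Markers of other cells were read in the same F1 animals, and none passed on the deposited scale (limma). With size factors 1 of 6 PVN and 1 of 5 neuronal markers fell, beside 8.86% of all genes, and 1 of 5 microglial markers rose, beside 8.47%. All 6 PVN neuroendocrine markers had a fold change below 0, beside 36.2% of all genes, and their summed value was 91185 to 208706 in Veh and 20619 to 180690 in sGC animals. All 5 endothelial markers were above 0 (summed value 5534 to 8412 in Veh and 6600 to 12272 in sGC), as were all 5 oligodendrocyte markers (34706 to 43771 and 34088 to 96289) and 4 of 5 microglial markers (3105 to 4373 and 3595 to 6760), 3 of 5 with size factors. Above 0 were also 4 of 5 astrocyte markers (95164 to 154468 and 118510 to 135944), 3 of 5 neuronal markers (55069 to 71803 and 54209 to 78339) and 3 of 5 ependymal markers (4847 to 7699 and 5612 to 8447). With size factors these were 3 of 5 astrocyte, 2 of 5 neuronal and 3 of 5 ependymal markers. Relative to all genes, the median fold changes were -1.12 (PVN), 0.32 (endothelial), 0.27 (oligodendrocyte), 0.24 (microglial), 0.09 (ependymal), 0.03 (astrocyte) and -0.05 (neuronal). On the deposited scale, 5 of 6 PVN markers were lower at an unadjusted p under 0.05 (limma), beside 1.46% of all genes. Higher were 4 of 5 endothelial, 2 of 5 microglial and 1 of 5 each of oligodendrocyte, neuronal and ependymal markers, beside 12.1%. No marker of these lists was at 0 in any animal. The part of cell composition in the group difference was not tested.

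Both subunits had a median fold change below that of all genes in F1. The median fold change minus that of all genes was -0.17 over 43 MRPL genes and -0.12 over 24 MRPS genes, and 41 of the MRPL genes and 19 of the MRPS genes lay below the all-gene median. By animal, the MRPL level did not overlap between the groups. The MRPS level did, with Veh SGM15 at 0.323 below sGC SGM8 at 0.344 and sGC SGM12 at 0.324. With size factors, 21 of 43 MRPL genes and 5 of 24 MRPS genes fell, beside 8.86% of all genes. The 2 members that rose, MRPS7 and MRPS21, were both of the small subunit. They were 8.33% of its genes, near the 8.47% of all genes that rose. Within each animal, the MRPL mean minus the MRPS mean was -0.50 in SGM3, -0.49 in SGM7, -0.49 in SGM11, -0.47 in SGM15 and -0.49 in SGM19 of the Veh group. In the sGC group it was -0.56 in SGM4, -0.54 in SGM8, -0.60 in SGM12, -0.51 in SGM16 and -0.52 in SGM20. The groups did not overlap, but the nearest pair, Veh SGM3 at -0.500 and sGC SGM16 at -0.505, lay close. By symbol, the MRPL mean was thus lower relative to the MRPS mean in all 5 sGC animals than in any Veh animal. In F2 the same difference averaged -0.285 in Veh and -0.297 in sGC, and in F3 -0.476 and -0.482. The groups overlapped in both of these generations. No test of the difference is given here, and it was not read per animal by place in the ribosome. Placing MRPS30 and MRPS18A, which carry small-subunit symbols but sit in the large subunit, with the MRPL genes left the medians at -0.17 (45 genes) and -0.11 (22 genes).

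Genes of bacterial ancestry and genes found in the mitochondrial lineage alone both had a median fold change below that of all genes in F1. The medians relative to all genes were -0.17 over 41 bacterial-type members and -0.12 over 26 mitochondrion-specific members. All 27 bacterial-type MRPL genes lay below the all-gene median, as did 14 of 16 mitochondrion-specific MRPL genes. Of the MRPS genes, 10 of 14 bacterial-type and 9 of 10 mitochondrion-specific genes did, at medians of -0.17 and -0.09 relative to all genes. The 2 members that rose with size factors were bacterial-type MRPS genes. By place in the large subunit, the medians were -0.14 for the 3 stalk genes, -0.20 for the 7 genes around the exit of the peptide tunnel and -0.16 for the 7 genes of the central protuberance, which contacts the small subunit.

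MRPS18C, the paralogue that holds the place of the bacterial protein in the small subunit, had the largest fall among the members that passed with size factors. Its deposited values in F1 Veh were 587 in SGM3, 677 in SGM7, 561 in SGM11, 496 in SGM15 and 533 in SGM19. In F1 sGC they were 508 in SGM4, 516 in SGM8, 441 in SGM12, 412 in SGM16 and 358 in SGM20. The groups overlapped on this scale through the Veh animal SGM15, and the log2 fold change was -0.36 (SE 0.135, limma adjusted p = 0.230). Divided by size factors, the Veh values were 558, 563, 580, 575 and 628 and the sGC values 487, 482, 422, 392 and 394, in the same order of animals. The groups then stood apart, at 581 ± 27.8 in Veh and 435 ± 46.0 in sGC (SD, n = 5 each), a log2 fold change of -0.42 (SE 0.0739, limma adjusted p = 0.00505).

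Its paralogues gave smaller differences. MRPS18B fell with size factors, from 343 ± 23.6 in Veh to 282 ± 16.0 in sGC (SD, n = 5 each, log2 fold change -0.28, limma adjusted p = 0.0190). MRPS18A, the form placed in the large subunit, had a log2 fold change of -0.23 that did not pass (limma adjusted p = 0.0662).

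Among other small-subunit genes, MRPS33, a mitochondrion-specific protein, had size-factor values of 1216, 1282, 1232, 1084 and 1311 in the Veh animals SGM3, SGM7, SGM11, SGM15 and SGM19. In the sGC animals SGM4, SGM8, SGM12, SGM16 and SGM20 they were 1009, 1015, 1031, 991 and 963. The sGC animals lay close together below all Veh animals, and MRPS33 fell by 0.29 on the log2 scale (SE 0.0521, limma adjusted p = 0.00571). MRPS14, a bacterial-type protein, fell by 0.39 (SE 0.103, limma adjusted p = 0.0258), with 1 Veh animal, SGM15 at 195, inside the sGC range of 161 to 210. MRPS33 and the other members named for passing with size factors alone were chosen after their values were seen.

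MRPS7, an rRNA-binding protein of the small-subunit head, and MRPS21, a bacterial-type protein of the same subunit, went the other way. The size-factor values of MRPS7 were 1095, 1043, 1059, 1080 and 1020 in Veh and 1213, 1107, 1243, 1155 and 1232 in sGC. All sGC animals were above all Veh animals, and MRPS7 rose by 0.17 (SE 0.0428, limma adjusted p = 0.0240). MRPS21 was 2561 ± 76.8 in Veh and 2872 ± 183 in sGC (SD, n = 5 each) and rose by 0.16 (SE 0.0469, limma adjusted p = 0.0368), with the sGC animal SGM16 at 2585 inside the Veh range. On the deposited scale both log2 fold changes were 0.23, with limma adjusted p = 0.425 for MRPS7 and 0.400 for MRPS21. MRPS25, named for the next largest fold change, differed by 0.02 with size factors (limma adjusted p = 0.639).

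In the large subunit, MRPL43, a mitochondrion-specific protein, had size-factor values of 792, 858, 836, 865 and 841 in Veh and 690, 722, 715, 750 and 685 in sGC. The groups did not overlap, and MRPL43 fell by 0.23 (SE 0.0433, limma adjusted p = 0.00615). MRPL34, a bacterial-type protein, fell from 697 ± 22.4 to 592 ± 26.7 (SD, n = 5 each, log2 fold change -0.24, limma adjusted p = 0.00859). MRPL35, a bacterial-type protein, fell from 10083 ± 337 to 8905 ± 331 (SD, n = 5 each, log2 fold change -0.18, limma adjusted p = 0.0114), again with no overlap. MRPL33, which had the lowest values of the members, had the most negative fold change, -0.43 with size factors, but its values of 69 to 98 in Veh and 51 to 71 in sGC overlapped and it did not pass (limma adjusted p = 0.0531).

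Over the F1 members, 18 had every sGC animal below every Veh animal with size factors, beside 7.16% of all genes, and 1 (MRPS7) had every sGC animal above, beside 7.07%. On the deposited scale no member had groups apart in either direction, beside 0.253% of all genes below and 1.79% above.

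**Figure D2:**
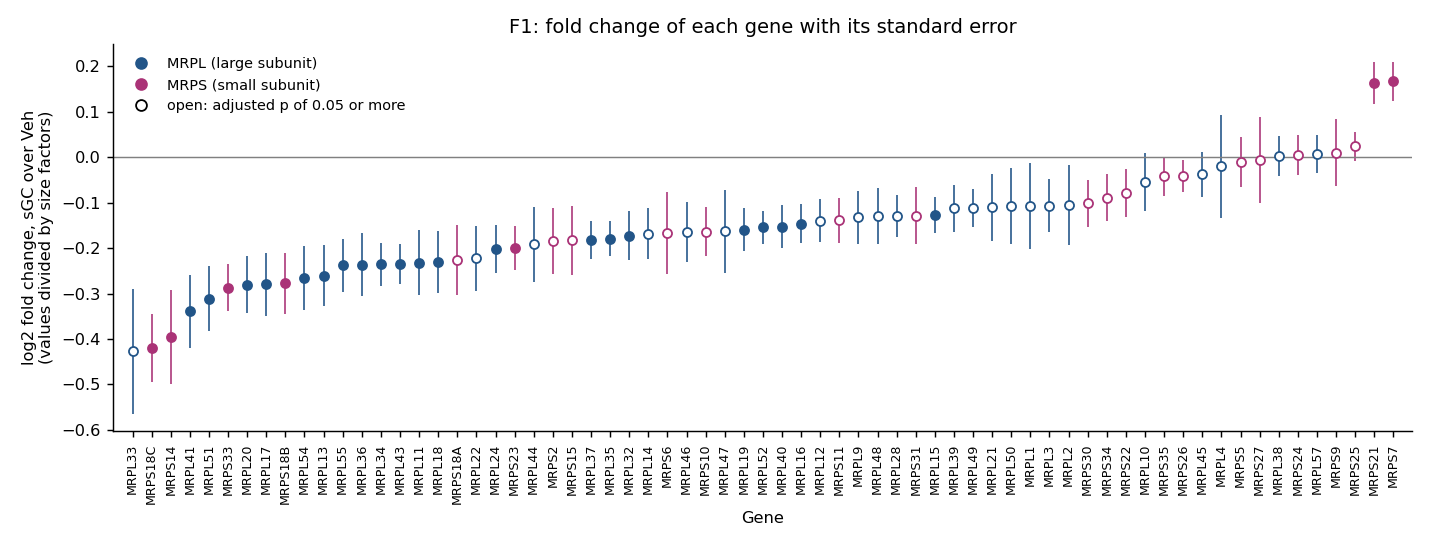
The log2 fold change of sGC over Veh in F1 with its standard error is drawn for each of the 67 members after division by size factors, ordered by size, with MRPL genes in blue, MRPS genes in purple and filled points for an adjusted p under 0.05. Filled points below 0 number 26, and the 2 above 0 are MRPS21 and MRPS7.

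The remaining members fixed by role were mixed. In the stalk, which recruits translation factors, MRPL11 fell by 0.23 with size factors (limma adjusted p = 0.0452), MRPL12 differed by -0.14 (limma adjusted p = 0.0692) and MRPL10 by -0.05 (limma adjusted p = 0.591). In the central protuberance, MRPL40 fell by 0.15 (limma adjusted p = 0.0478) while MRPL38 was level at 855 ± 23.8 in Veh and 857 ± 40.9 in sGC (SD, n = 5 each). The tunnel-exit protein MRPL45, which anchors the mitoribosome to the inner membrane, differed by -0.04, and on the deposited scale it was at 0.02. MRPL2, MRPL3 and MRPL4, bacterial-type proteins of the large subunit, differed by -0.10, -0.11 and -0.02 with size factors, and MRPL4 was at 0.04 on the deposited scale. None of these 3 passed (limma adjusted p = 0.439, 0.226 and 0.924). MRPS22 and MRPL44, genes of human mitochondrial disease, differed by -0.08 and -0.19 (limma adjusted p = 0.330 and 0.130), and MRPS15 and MRPS30 by -0.18 and -0.10 (limma adjusted p = 0.117 and 0.198).

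The F1 calls with size factors depended on single animals. Leaving out each animal in turn gave 7 to 29 members called, the lowest without the Veh animal SGM11, when 7.61% of all genes passed. There were 16 without SGM3 (11.8% of all genes), 17 without SGM7 (12.3%), 14 without SGM19 (12.4%), 18 without SGM4 (12.6%) and 18 without SGM20 (13.2%). With all animals there were 28, beside 17.3% of all genes. The members MRPL20, MRPL34, MRPL35, MRPL43, MRPL51, MRPS18C and MRPS33 passed in all 10 of these fits. MRPS18B passed in 9 of the 10, MRPS14 and MRPS7 in 5 each, MRPL11 in 3, MRPS21 in 2 and MRPL40 in 1. In each of the 10 fits, 59 to 63 of the 67 members lay below the all-gene median.

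In F2, no member differed after adjustment on either scale (limma), and no gene of the table did, 0% of 11965 tested. At an unadjusted p under 0.05, 7 members were lower on the deposited scale, beside 9.17% of all genes, and none were higher, beside 2.49%. With size factors, 5 were lower, beside 6.01%, and none higher, beside 6.82%. The median member was -0.02 relative to all genes, with -0.03 over MRPL genes and -0.01 over MRPS genes, and 42 of 66 members lay below the all-gene median. The level per animal was -0.06 to 0.001 in Veh and -0.12 to -0.02 in sGC, and the groups overlapped.

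The most negative F2 fold changes were those of MRPL22, a tunnel-exit protein, MRPS23 and MRPL51, the last 2 mitochondrion-specific. MRPL22 had deposited values of 278, 238, 275, 252 and 270 in the Veh animals SGM22, SGM23, SGM27, SGM28 and SGM29. In the sGC animals SGM21, SGM26, SGM30, SGM24 and SGM25 they were 232, 247, 220, 202 and 228. The sGC animal SGM26 lay within the Veh range, and the log2 fold change was -0.22 (SE 0.0938, limma adjusted p = 0.399), or -0.14 with size factors (limma adjusted p = 0.354). MRPS23 and MRPL51 were at -0.22 and -0.21 (limma adjusted p = 0.403 and 0.388), and both at -0.14 with size factors. With size factors 3 members, MRPL20, MRPL22 and MRPS23, had every sGC animal below every Veh animal, beside 1.91% of all genes. On the deposited scale no member had groups apart, beside 2.31% of all genes below and 0.0919% above. At the other end, MRPS18A, MRPL35 and MRPL50 were at 0.07, 0.02 and 0.02 (limma adjusted p = 0.813, 0.903 and 0.948), and with size factors at 0.15, 0.10 and 0.10 (limma adjusted p = 0.596, 0.508 and 0.781).

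In F2, the 6 oligodendrocyte markers were all lower in sGC animals, with summed values of 125164 to 225722 in Veh and 65936 to 106445 in sGC, and the 6 PVN markers were all above 0 (57323 to 96811 and 77048 to 170654). Relative to all genes, their median fold changes were -0.77 (oligodendrocyte) and 0.44 (PVN). All 5 ependymal markers were above 0, with a median fold change of 1.08 relative to all genes (summed value 5145 to 6728 in Veh and 5513 to 8655 in sGC). The 5 endothelial, 5 microglial and 5 neuronal markers were all below 0, beside 75.5% of all genes, at medians of -0.27, -0.12 and -0.13 relative to all genes. Of the 5 astrocyte markers, 4 were above 0 (5 with size factors), at a median of 0.17 relative to all genes. At an unadjusted p under 0.05 on the deposited scale (limma), 6 of 6 oligodendrocyte and 3 of 5 endothelial markers were lower, beside 9.17% of all genes. Higher were 4 of 6 PVN and 2 of 5 ependymal markers, beside 2.49%. No neuronal, microglial or astrocyte marker was in either count. The mitochondrial ribosomal levels overlapped between the same animals. The part of these markers in the values was not tested.

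In F3, no member differed after adjustment on either scale (limma), beside 0.0506% of all genes on the deposited scale and 0.0421% with size factors. At an unadjusted p under 0.05 on the deposited scale, 8 members were higher, beside 6.19% of all genes, and 4 were lower, beside 6.92%. The median member was 0.02 above all genes (0.01 over MRPL and 0.02 over MRPS genes), and 25 of 65 members lay below the all-gene median. The level per animal ran from 0.06 through a median of 0.10 to 0.13 in Veh, and from 0.10 through 0.12 to 0.17 in sGC. The groups overlapped, and the highest 2 sGC animals were the 2 of the second sequencing batch, at 0.17 and 0.14. Within the first batch the median member was at -0.00039 relative to all genes.

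MRPL57, a mitochondrion-specific protein of the large subunit, had F3 deposited values of 880 at the lowest, 937 at the median and 980 at the highest in Veh, and of 830, 865 and 872 in sGC. The groups did not overlap, the 2 animals of the second batch lay inside the range of the other sGC animals, and the log2 fold change was -0.12 (SE 0.0301, limma adjusted p = 0.125). MRPS30, a large-subunit protein despite its symbol, had lowest, median and highest values of 451, 485 and 515 in Veh and 516, 533 and 564 in sGC. The groups touched without overlap, at a log2 fold change of 0.14 (SE 0.0391, limma adjusted p = 0.177), and with size factors they overlapped. These were the only members with groups apart on the deposited scale, 1 lower beside 0.632% of all genes and 1 higher beside 0.581%.

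MRPS9, a bacterial-type protein of the small subunit, was 385 ± 23.4 in F3 Veh and 431 ± 30.3 in F3 sGC (SD, n = 6 each, log2 fold change 0.16, limma adjusted p = 0.227). MRPS18C had lowest, median and highest values of 406, 417 and 478 in Veh and 447, 473 and 517 in sGC. The groups overlapped through the Veh animal SGM14, and the log2 fold change was 0.16 (SE 0.0510, limma adjusted p = 0.215). MRPL50, MRPS21 and MRPL4 were at 0.14, -0.09 and -0.08 (limma adjusted p = 0.350, 0.298 and 0.544).

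**Figure D3:**
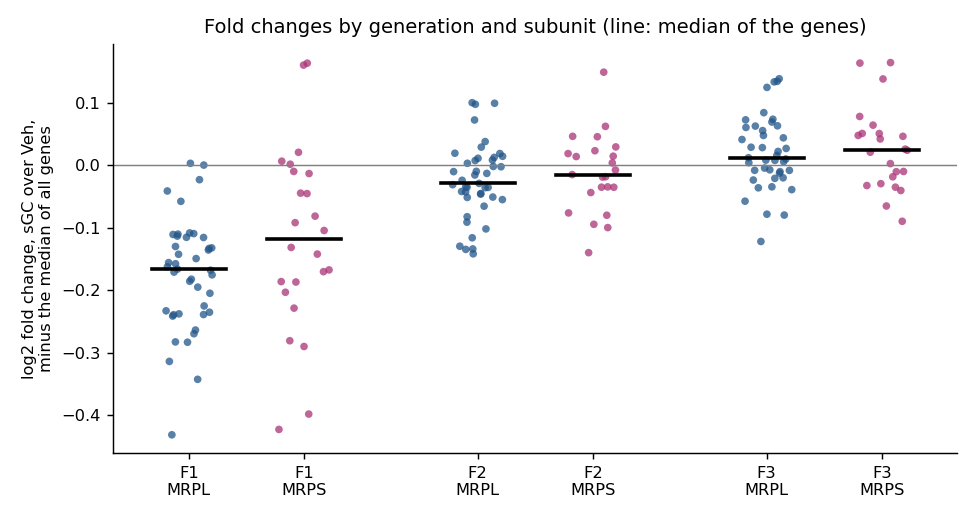
Each point is 1 member, and the vertical axis is its log2 fold change of sGC over Veh on the deposited scale minus the median of all genes of the same table, by generation and subunit (lines are medians of the genes). For MRPL genes the medians are -0.17, -0.03 and 0.01 from F1 to F3, and for MRPS genes -0.12, -0.01 and 0.02.

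Fold changes were compared between generations with the interaction term of a joint limma fit, and the F1 animals enter both comparisons with F1. The joint fit took a single variance per gene for both generations. On the deposited scale MRPS18C was the only member whose fold change differed, at -0.36 in F1 and 0.16 in F3, a difference of -0.52 (SE 0.129, limma adjusted p = 0.0261), beside 3.63% of all genes. Fitted apart, the SE of its fold change was 0.135 in F1 and 0.0510 in F3. The SE of the difference was thus below that of the F1 fold change alone, through the shared variance. A fit with separate variances was not run. With size factors the difference was -0.58 (SE 0.0888, limma adjusted p = 0.000137). Leaving out each animal in turn, an alternative added after seeing the data, kept it between -0.44 and -0.57 on the deposited scale. The call was lost without the Veh animals SGM11 of F1 or SGM13 of F3 or the sGC animal SGM21-batch2 of F3 (limma adjusted p = 0.0507, 0.0511 and 0.0532). The F2 fold change of MRPS18C was -0.03 (SE 0.0966) on the deposited scale and 0.04 with size factors, and its F1 to F2 difference passed with size factors alone (-0.46, limma adjusted p = 0.0235).

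**Figure D4:**
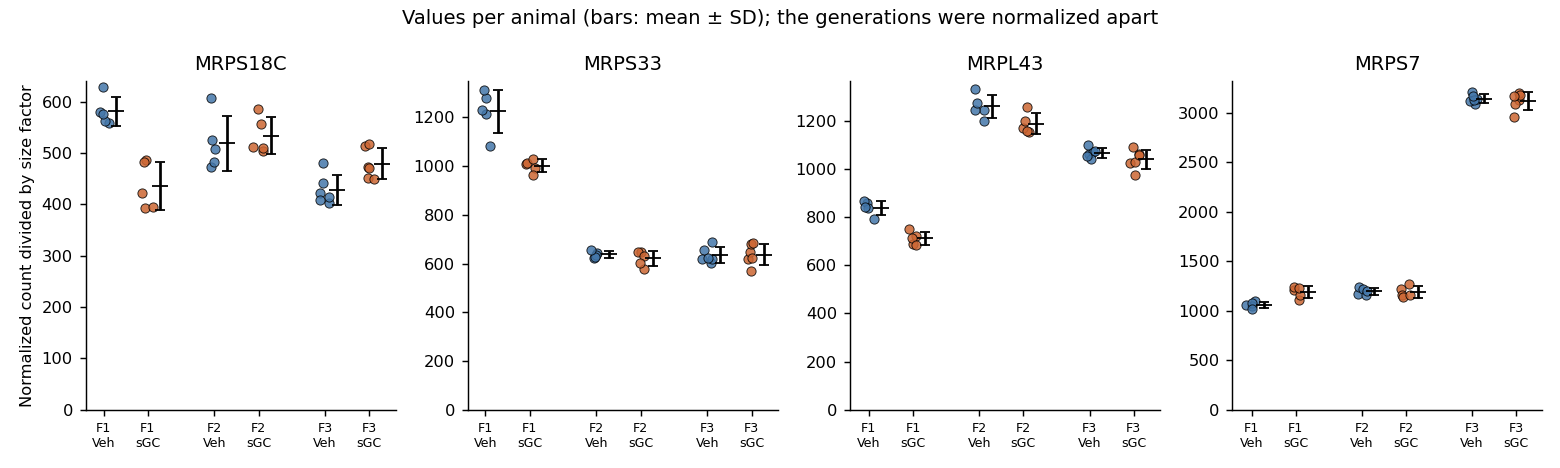
Values divided by size factors are drawn for each animal for MRPS18C, MRPS33, MRPL43 and MRPS7, with Veh and sGC side by side in each generation (bars are mean ± SD; generations were normalized apart, so levels are compared within a generation only). For MRPS18C the F1 groups are apart, at 581 in Veh and 435 in sGC on average, and the F2 and F3 groups overlap.

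With size factors, 29 of 64 members differed between F1 and F3, beside 22% of all genes, 27 of them with the lower fold change in F1 and 2, MRPS7 and MRPS21, with the higher. The MRPS21 difference was 0.25 (limma adjusted p = 0.00408) and that of MRPS7 was 0.18 (limma adjusted p = 0.00532). The mean Veh value of MRPS7 was 1046 in F1 and 3144 in F3, and whether it was counted alike in both is not given in the sources used here. Between F1 and F2, 4 of 65 members differed with size factors (MRPS18C, MRPL41, MRPL35 and MRPS33, all lower in F1), beside 4.44% of all genes, and none on the deposited scale, beside 1.37%, where 1 member was at an unadjusted p under 0.05, beside 16.4%. Between F2 and F3, MRPL57 differed with size factors (0.19, limma adjusted p = 0.0465), beside 1.73% of all genes, and none on the deposited scale, beside 1.52%, where 10 members were at an unadjusted p under 0.05, beside 16.7%.

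Genes that act with the mitoribosome were read as lists beside it. In F1, the median fold change minus that of all genes was -0.21 for 60 subunits of the respiratory chain, -0.20 for 18 genes of mitochondrial protein import and -0.19 for 50 cytosolic ribosomal proteins, against -0.16 for the mitochondrial ribosomal genes. With size factors 31, 11 and 24 genes of these lists fell, beside 8.86% of all genes, and none rose, beside 8.47%. None passed on the deposited scale, beside 0.657%. TOMM7, a subunit of the outer-membrane import channel, fell by 0.38 (limma adjusted p = 0.00127), and ATP5H, a subunit of ATP synthase, by 0.34 (limma adjusted p = 0.00190).

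The other parts of mitochondrial gene expression were closer to the median gene in F1. The medians relative to all genes were -0.05 for 6 mitoribosome genes with other symbols, -0.08 for 23 assembly factors, -0.04 for 16 translation factors, -0.03 for 17 mitochondrial tRNA synthetases and -0.07 for 15 genes of mitochondrial transcription and DNA maintenance. None of their genes passed on the deposited scale. With size factors 1 of 23 assembly factors and 1 of 16 translation factors fell, beside 8.86% of all genes, and 1 of 17 tRNA synthetases rose, beside 8.47%. ERAL1, an assembly factor of the small subunit, fell by 0.16 (limma adjusted p = 0.0153), TUFM, the mitochondrial elongation factor, fell by 0.14 (limma adjusted p = 0.0295), and TARS2, the mitochondrial threonyl-tRNA synthetase, rose by 0.23 (limma adjusted p = 0.0102).

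The 8 regulators of mitochondrial biogenesis had a median of 0.10 above all genes in F1. PPARGC1A, the coactivator that drives mitochondrial biogenesis, was 520 ± 79.7 in Veh and 720 ± 123 in sGC on the deposited scale (SD, n = 5 each, log2 fold change 0.47, limma adjusted p = 0.119). It rose by 0.40 with size factors (limma adjusted p = 0.0135), and its F3 log2 fold change was -0.17 on the deposited scale (limma adjusted p = 0.298). ESRRA, a nuclear receptor that PPARGC1A acts through, fell by 0.19 in F1 with size factors (limma adjusted p = 0.0309).

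**Figure D5:**
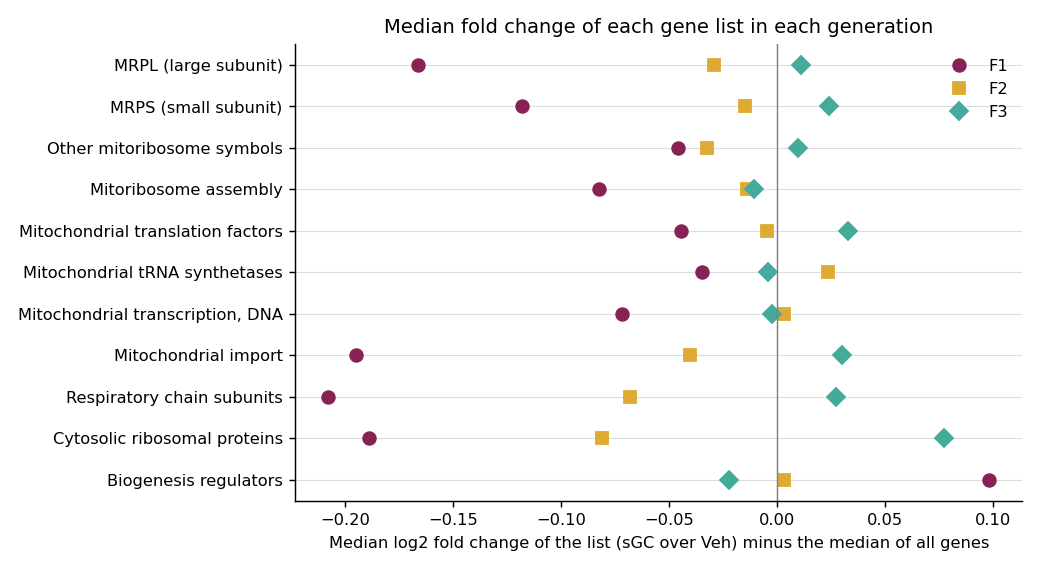
For each gene list, the horizontal axis gives the median log2 fold change of sGC over Veh on the deposited scale minus the median of all genes, with 1 symbol per generation. In F1 the MRPL genes, at -0.17, lie near mitochondrial import, the respiratory chain and cytosolic ribosomal proteins at -0.19 to -0.21, and the regulators lie at 0.10. In F2 and F3 all lists lie between -0.08 and 0.08.

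No gene of these lists passed the adjusted threshold in F2 or F3 (limma). Relative to all genes, the respiratory chain was at -0.07 (F2) and 0.03 (F3), and cytosolic ribosomal proteins at -0.08 and 0.08, beside -0.02 and 0.02 for the mitochondrial ribosomal genes. In F2, 57 of 61 respiratory chain and 49 of 52 cytosolic ribosomal genes lay below the all-gene median, and 19 and 12 of them were lower at an unadjusted p under 0.05, beside 9.17% of all genes. With size factors these were 17 and 1, beside 6.01%. In F3, 48 of 60 and 46 of 50 had a fold change above 0, and 6 and 8 were higher at an unadjusted p under 0.05, beside 6.19%.

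The members varied less between Veh animals than genes in general. After division by size factors their median coefficient of variation in Veh was 5.25%, 5.48% and 4.47% by generation, against 6.78%, 9.09% and 5.68% over all genes. Over the genes within the members' range of means it was 6.21%, 8.15% and 5.32%. That range is wide and held 10327 of the 11874 genes tested in F1, so level was matched only loosely. The authors had already adjusted these values, so the spread is not that of raw counts. Between pairs of members, the mean correlation over animals after removal of the group means was 0.12 (F1, 10 animals), 0.03 (F2, 10 animals) and 0.15 (F3, 12 animals), against 0.45, 0.12 and 0.52 for respiratory chain subunits and 0.65, 0.61 and 0.67 for cytosolic ribosomal proteins. These are descriptions, and the genes of an animal share its library. The mean over pairs of all genes was 0.000839, 0.000992 and 8.2e-05. Size factors centre each animal on the bulk of genes, which draws that mean towards 0, so it is no reference for the members.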

How the data were processed

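RNA-seq of PVN micropunches was analysed from 1 table per generation. The submitters' processing notes name TopHat2. Per the study's methods, the authors aligned reads to the cavPor3 build, counted them with GenomicAlignments, adjusted F3 for batch with ComBat, removed unwanted variation with RUVSeq and tested with edgeR. The deposited values are therefore normalized counts rounded to whole numbers, treated here as a score and not as raw counts, so no count model was run. By near-zero singular values, 1 direction of variation between animals is missing from the F1 table, 1 from F2 and 2 from F3. Which step removed each was not tested, and p-values take no account of them. Columns holding the authors' own comparisons (fold change, p-value and adjusted p-value) were not used.

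Genes with a mean of at least 10 were tested with limma 3.58.1 in R 4.3.3 on log2(value + 1), each generation apart, with a trended prior and Benjamini-Hochberg adjustment over all genes at 0.05. Generations were compared by interaction in a joint fit, with a variance per gene shared by both generations. The pipeline was tested on simulated data. Alternatives were median-of-ratios size factors, equal totals, quantile scaling, other pseudocounts (0.5 and 5) and filters (none and a mean of 50), no trend, the removed directions as covariates, F3 batch and leaving out each animal.

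Named members were those past the threshold or with groups apart on the deposited scale, the 3 largest rises and falls per generation at a mean of at least 50, those with the highest and lowest levels, and a set fixed by role. Of the members that passed with size factors alone, some were named after their values were seen and others are not described. Members and lists were chosen with earlier results of these data known. All 68 member symbols matched RefSeq (mCavPor4.1), which lists 77 MRPL and MRPS genes. The other 9 and 2 resequenced F3 Veh libraries were not analysed here. Counting of near-identical gene copies is not given in the sources used here.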

Additional observations from a re-analysis of the deposited data

Results flagged for a closer look

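Single animals stood apart from the rest of their group in 7 of 216 groups of values examined, where chance gives about 1 in 20, or 10.8. On log2(value + 1), MRPS15 was at 9.88 in the F1 Veh animal SGM7 (9.33 to 9.48 in the others). MRPL11 was at 8.11 (8.50 to 8.63) and MRPL44 at 7.94 (8.37 to 8.54) in the F1 sGC animal SGM20. The deposited total of that animal was also low, at 16.2 in units of 1000000 (19.1 to 20.0 in the others). MRPL51 was at 8.84 in the F2 Veh animal SGM23 (9.10 to 9.20) and MRPL49 at 12.65 in the F3 sGC animal SGM21-batch2 (12.54 to 12.58). The MRPS level relative to all genes was 0.32 in the F1 Veh animal SGM15 (0.42 to 0.46).

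The fold change of MRPS18C differed between F1 and F3 by -0.52 on the log2 scale (limma interaction, adjusted p = 0.0261). It was the 1 member called of 64 (1.56%), beside 3.63% of all genes. The fit shared a variance between the generations, and the call was lost in some fits that left out a single animal.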

How the results depend on the processing

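The median fold change of the members relative to all genes kept its direction in F1 and F2 in every alternative run, although scalings leave it nearly fixed by construction. In F3 it was 0.016 and turned to -0.00039 within the first sequencing batch and -0.00038 with batch as a covariate. The count of F1 members called was 0 on the deposited scale (0.657% of all genes) and 28 with size factors (17.3%). It was 24 with equal totals (16.4%) and 30 with quantile normalization (17.5%). With size factors it was 17 (11.3% of all genes) once the missing directions were covariates, and 7 to 29 when single animals were left out (both added after seeing the data). Members whose fold change differed between generations numbered, with size factors and with equal totals, 4 and 3 (F1 against F2), 29 and 26 (F1 against F3), and 1 and 1 (F2 against F3), with 4.22%, 21.5% and 1.31% of all genes under equal totals. The cause was not tested. Within a generation, the labels give Veh and sGC animals no shared replicate numbers. Between generations, SGM21 and SGM22 each label an F2 animal and an F3 animal. The column names of the tables number the animals, and same-numbered animals did not deviate together (correlations of -0.239 to 0.313 in F1, -0.412 to 0.223 in F2, -0.542 to 0.185 in F3). With that number as a replicate block, added after seeing the data, 4 F1 members passed with size factors (6.49% of all genes), and 0 in each other fit. Of all genes, 1.23% (F1) and 0.0501% (F2) passed on the deposited scale, and 0% in the remaining fits. Values adjusted by the authors carry no raw depth, so counting error is unknown, and small groups limit what adjusted tests can detect.

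With size factors, log2 fold changes near 0 turned from above to below 0 for 7 of 67 members in F1 and from below to above 0 for 20 of 66 in F2, and for none of 65 in F3. The named members among them are given with size factors and with equal totals. In F1 they were MRPL10 (-0.055 and -0.049), MRPL4 (-0.020 and -0.014), MRPL45 (-0.038 and -0.032) and MRPS26 (-0.042 and -0.036). In F2 they were MRPL3 (0.0093 and 0.019), MRPL33 (0.026 and 0.036), MRPL38 (0.0064 and 0.016), MRPL4 (0.017 and 0.027), MRPL44 (0.011 and 0.020), MRPL57 (0.071 and 0.080), MRPS14 (0.012 and 0.022), MRPS18C (0.044 and 0.054), MRPS21 (0.0019 and 0.012), MRPS22 (0.021 and 0.031) and MRPS26 (0.027 and 0.037), and with equal totals alone MRPL10 (0.0060) and MRPS7 (0.00029). Leaving out single animals also turned the sign of some named members. The F1 ranges were MRPL10 -0.056 to 0.096, MRPL2 -0.12 to 0.026, MRPL3 -0.13 to 0.061, MRPL4 -0.021 to 0.11, MRPL45 -0.053 to 0.11, MRPL47 -0.18 to 0.019, MRPL49 -0.11 to 0.038, MRPL50 -0.10 to 0.064, MRPS22 -0.069 to 0.080, MRPS26 -0.032 to 0.097, MRPS30 -0.11 to 0.045, MRPS34 -0.079 to 0.035 and MRPS9 -0.030 to 0.17. The F2 ranges were MRPL33 -0.13 to 0.072, MRPL35 -0.0049 to 0.064, MRPL50 -0.073 to 0.081, MRPL57 -0.030 to 0.028, MRPS18C -0.084 to 0.024, MRPS21 -0.14 to 0.0082 and MRPS22 -0.090 to 0.018. The F3 ranges were MRPL10 -0.0048 to 0.017, MRPL33 -0.072 to 0.017, MRPL47 -0.030 to 0.0062, MRPL49 -0.011 to 0.016, MRPS18A -0.0087 to 0.051, MRPS22 -0.0087 to 0.033 and MRPS7 -0.019 to 0.0040.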

Other observations

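Some members had Veh levels that differed widely between the generation tables. The tables were normalized apart, so each ratio is given relative to the median gene of the pair and was not tested. Whether annotation or counting differed between the tables is not given in the sources used here, so a ratio need not be one of expression. The mean Veh value of MRPS26, a small-subunit protein, was 5853 in F1, 607 in F2 and 446 in F3, and the F1 over F3 ratio was 13.03 times that of the median gene (0.451% of genes were this far in either direction). The other members whose ratio was over 4-fold from that of the median gene in a pair of tables were MRPS6 at 897, 421 and 2412 in F1, F2 and F3, MRPL51 at 575, 538 and 2322, and MRPS24 at 2223, 601 and 2454. MRPS7 and MRPL35, whose fold changes differed between generations with size factors, were at 1046, 1227 and 3144 and at 9972, 4347 and 9591. Between the F1 groups, the log2 fold change of MRPS26 was -0.04 after size factors.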
